A study of Mus musculus with 12 samples.

Results

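A set of 10 genes of lipid uptake and lipoprotein handling was followed in 3T3L-1 cells, a mouse embryonic fibroblast line widely used as pre-adipocytes, during co-culture with the mouse macrophage line Raw264.7. The genes were Lpl, Apoe, Apod, Cd36, Fabp4, Fabp5, Olr1, Vldlr, Lipe and Pnpla2, and every array probe whose accession mapped to one of these 10 genes was taken, which gave 13 of 39429 probes. Of the 10 genes, 9 passed the filter on dim probes and were tested among 13841 genes, and Lipe was not tested. The 3T3L-1 cells were kept for 6 h, 24 h or 48 h below an insert with 0.4 µm pores that held the Raw264.7 cells, or alone. Both kinds of culture received 100 µM serotonin (S), 100 µM cortisol (C), 100 µM of each hormone (CS) or no treatment (NT). Hormone stocks were made in DMSO, and the medium was changed after 24 h with the hormones renewed. Whether NT cells received DMSO is stated by neither the labels nor the methods, so differences from NT may also hold an effect of DMSO. On each of the 12 arrays the co-cultured cells were labelled with Cy5 and their counterparts grown alone, of the same time and treatment, with Cy3. Every condition had a single array (1) and the dyes were never exchanged, so each ratio also holds any bias of its probe for a dye. Neither the labels nor the methods state that the arrays came from separate cultures. The 4 treatments of a time were therefore compared after removal of an additive treatment effect, and the p-values rest on nothing but the remaining spread between these arrays, which may be technical.

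Triglyceride-rich lipoproteins reach fat cells through lipoprotein lipase, the product of Lpl, which frees fatty acids from them at the capillary wall. Apolipoproteins such as the product of Apoe bind lipoprotein receptors, among them the VLDL receptor, and scavenger receptors take up modified lipoproteins and free fatty acids. Inside the cell, fatty acid binding proteins carry the fatty acids, and stored triglyceride is broken down in order by adipose triglyceride lipase (Pnpla2) and hormone-sensitive lipase (Lipe). Macrophages also use several of these genes, and Apoe, Cd36, Olr1, Fabp4 and Fabp5 are known to be expressed in them.

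Of the 10 genes, 7 have at least 1 window in the table of RefSeq promoters on GRCm38.p6, and Lpl, Fabp4 and Fabp5 have none. Of the 5 genes called at 48 h, Apoe, Apod and Olr1 have a window, and the 250 bases before a transcript start, as the table gives it, are shown because these 3 genes carried the larger changes beside Lpl. All 3 lie on the minus strand and are printed 5′ to 3′ along the gene, from chr7:19699189-19699438 for Apoe (the one farthest upstream of the 3 in the table), chr16:31314809-31315058 for Apod and chr6:129507166-129507415 for Olr1. The annotated genes extend further, so the Apoe window lies inside the annotated span of the gene and the Olr1 window overlaps the end of its span. Capitals mark matches, on either strand, to the AP-1 type motif TGACTCA, the nuclear receptor half-site AGGTCA, the CCAAT box motif, the GC box motif GGGCGG and the TATA box motif TATAAA. An NF-kB type motif and the palindromic glucocorticoid response element were also searched.
Apoe: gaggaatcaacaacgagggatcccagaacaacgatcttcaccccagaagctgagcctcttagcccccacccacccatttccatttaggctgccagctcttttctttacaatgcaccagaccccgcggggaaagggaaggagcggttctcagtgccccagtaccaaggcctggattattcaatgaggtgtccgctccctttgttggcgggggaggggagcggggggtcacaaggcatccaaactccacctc
Apod: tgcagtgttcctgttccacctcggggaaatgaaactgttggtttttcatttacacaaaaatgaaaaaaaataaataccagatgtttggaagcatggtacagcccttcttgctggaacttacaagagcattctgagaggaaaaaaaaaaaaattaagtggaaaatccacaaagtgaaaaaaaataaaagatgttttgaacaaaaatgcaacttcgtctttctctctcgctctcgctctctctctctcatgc
Olr1: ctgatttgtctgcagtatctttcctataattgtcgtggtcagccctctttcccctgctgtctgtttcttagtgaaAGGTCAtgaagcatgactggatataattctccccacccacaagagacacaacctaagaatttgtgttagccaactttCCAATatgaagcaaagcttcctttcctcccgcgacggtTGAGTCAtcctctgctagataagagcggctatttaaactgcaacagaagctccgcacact
The Olr1 window held the half-site, the CCAAT motif and, on the opposite strand, the AP-1 type motif, which do not overlap one another. Of all 32851 windows of this length, 4.46% held the AP-1 type motif, 14% the half-site, 33.8% the CCAAT motif, 32.7% the GC box motif, 12.4% the TATA box motif, 0.356% the NF-kB type motif and 0.00913% the glucocorticoid element. The Apoe and Apod windows held none of these motifs. These matches are a description of the sequence.

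Co-cultured cells gave 19684 to 22653 probes well above background per array and cells grown alone 18060 to 21122, and the number of arrays limits the precision. Fibroblast genes matched the label, with 12 of 12 tested and Col1a2, Dlk1 and Vim bright in both cultures and Lum above background on 3 arrays, whereas Adipoq and Lep, defining genes of mature adipocytes, were not well above background on any array. Of the 12 fibroblast genes, 1 was higher and 1 lower at 6 h, 1 higher and 2 lower at 24 h, and 2 higher (Dcn and Fn1) and 3 lower at 48 h (Col3a1 with a log2 ratio of -1.32, Pdgfra with -1.07, and Postn). The list median at 48 h was -0.28. Of all genes tested, 9.66%, 8.38% and 31.4% were called in either direction at 6, 24 and 48 h. Of 10 mature adipocyte genes 5 were tested. Of these, Pparg was measured on 12 arrays in both cultures, Cebpa in 6 co-cultured and 4 alone channels, Cidec in 4 and 4, and Adrb3 in 4 co-cultured channels and none alone. Slc2a4, the insulin-responsive glucose transporter, was above background in 11 co-cultured channels and in none alone. It was called higher at 48 h (adjusted p = 7.0e-07) and had passed the filter through co-cultured channels only. The hormone labels were checked with 15 genes that glucocorticoids are known to induce. In cells grown alone their median exceeded that of NT cells of the same time by 0.54 (log2) with S at 6 h and by 0.39 with S at 24 h, against 0.68 and 0.73 with C at 6 h and 24 h, and with CS at 24 h it was 0.09 below NT (-0.09). These 3 alone channels went against their labels, so each result below was also computed without the 3 arrays (S at 6 h and 24 h, CS at 24 h). That leaves 9 arrays and fewer degrees of freedom. Macrophage genes were not restricted to co-cultured cells. Of 21 such genes 13 were tested, and their summed normalized intensity ran from 15745 to 19114 in co-cultured cells and from 7963 to 11291 in cells alone at 6 h, from 12430 to 16719 in co-cultured cells and from 8208 to 13400 in cells alone at 24 h, and from 12767 to 19473 in co-cultured cells and from 7904 to 12249 in cells alone at 48 h. Of these 13 genes, 7 were higher at 6 h, 2 at 24 h and 6 at 48 h, and 1 (Cd53) was lower at 48 h. Over all genes tested, 4.39%, 4.68% and 14.6% were higher at the 3 times, and 16.8% were lower at 48 h. Tyrobp, among those higher at 6 h, was above background in 6 co-cultured channels and in none alone. It had thus passed the filter through co-cultured channels only. Ptprc, Spi1, Fcgr1, Fcgr3, Laptm5, Cx3cr1 and Msr1 were above background on at most 1 array per probe in either culture.

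The genes that passed the test in co-culture lay in both directions. In co-cultured cells Lpl was lower and Olr1 higher at each time, Apod was lower at 24 h and 48 h, Apoe was higher at 24 h and 4.91-fold higher at 48 h, Vldlr was higher at 24 h, and Fabp4 was lower at 48 h. Calls needed both an adjusted p (limma) below 0.05 and 1.5-fold or more. By this rule 2 of the 9 genes were called at 6 h (1 higher, 1 lower), where 9.66% of all genes tested were called (4.39% higher, 5.27% lower). At 24 h 5 of 9 were called (3 higher, 2 lower), against 8.38% of all genes (4.68% higher, 3.7% lower). At 48 h 5 of 9 were called (2 higher, 3 lower), against 31.4% of all genes (14.6% higher, 16.8% lower). The median log2 ratio of the 9 genes was 0.10 at 6 h, 0.17 at 24 h and -0.02 at 48 h, beside -0.02, 0.00 and -0.01 over all genes tested. Without the 3 arrays in doubt, 2, 3 and 5 of the 9 genes were called at the 3 times. The shares of all genes were then 9.35%, 8.33% and 31.4%. Centring each array on its median without loess moved the median of all genes to 0.23, 0.39 and -0.16. It called 6 of the 9 genes at 6 h, all of them higher, 7 at 24 h and 4 at 48 h. Of all genes tested, it called 25.2% higher and 1.67% lower at 6 h. These shares were 33.4% and 0.802% at 24 h, and 11.5% and 26.2% at 48 h. Under that centring 93.8%, 97.7% and 30.4% of all calls were in the higher direction at the 3 times, beside 45.5%, 55.9% and 46.4% with loess, and in the deposited log ratios 66.3% at 24 h. Below, ratios are log2 of co-cultured over alone, and fitted values carry the SE of the limma fit (4 arrays per time). In this bulk RNA, fewer cells of a type and less RNA per cell cannot be told apart.

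**Figure D1:**
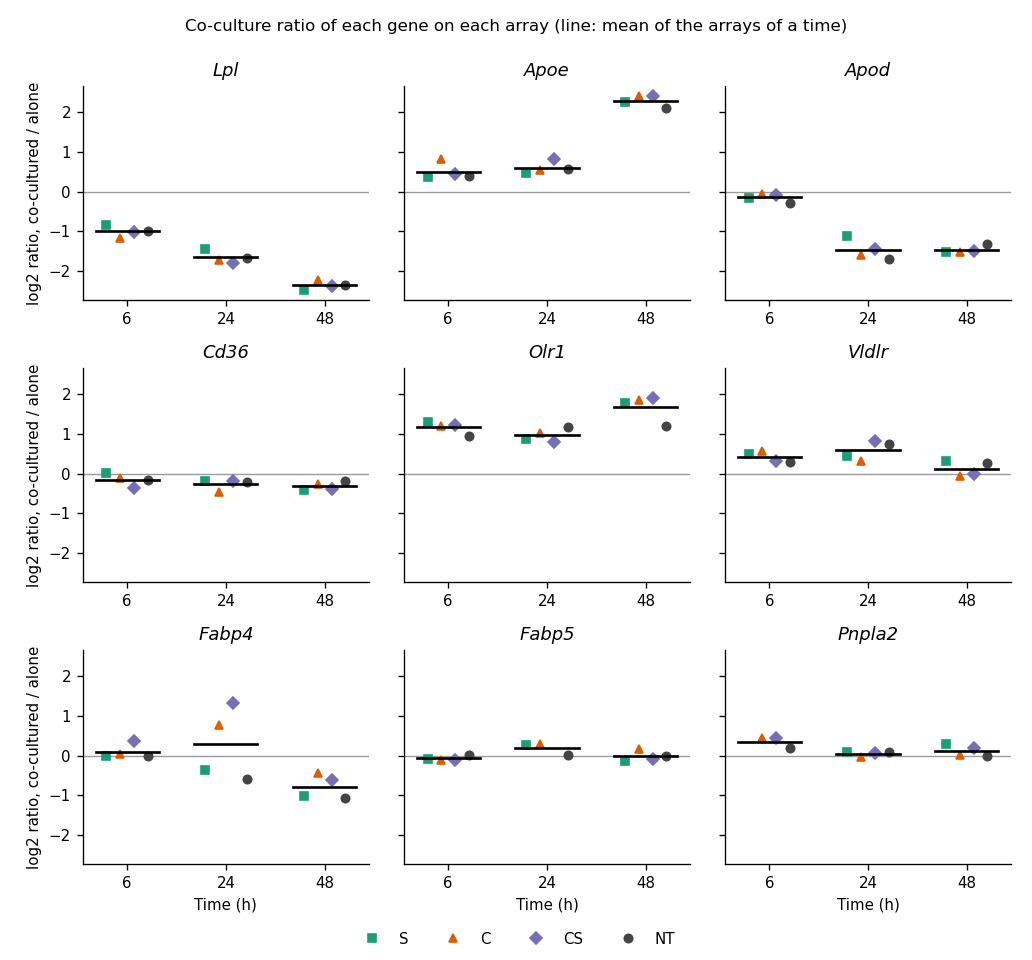
Log2 ratio of co-cultured over alone (y axis) by hours of co-culture (x axis) for the 9 genes tested, with 1 point per array, marked by treatment, and a line at the mean of the arrays of that time. The 4 Lpl points lie below 0 at each time and reach from -2.50 to -2.24 at 48 h, where the Apoe points lie between 2.12 and 2.41.

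Lpl encodes the lipase that opens this pathway and lies on chromosome 8 from 68880555 to 68906932 (GRCm38.p6). Its ratio was -0.84, -1.17, -1.03 and -0.99 with S, C, CS and NT at 6 h. At 24 h the ratios were -1.44, -1.72, -1.79 and -1.67, and at 48 h -2.50, -2.24, -2.38 and -2.35 in the same order. The ranges of the 3 times did not overlap, and no treatment stood apart at 48 h. The fitted ratio was -1.01 ± 0.07 at 6 h (2.01-fold lower, limma adjusted p = 2.5e-06), -1.66 ± 0.07 at 24 h (3.15-fold lower, adjusted p = 8.1e-08) and -2.37 ± 0.07 at 48 h (5.16-fold lower, adjusted p = 1.1e-09). At 48 h the log2 level was 12.92, 12.82, 12.69 and 12.78 with S, C, CS and NT in co-cultured cells, against 15.42, 15.06, 15.08 and 15.14 in cells grown alone. Co-cultured levels were also below those of cells alone at 6 h (13.48 to 13.70 against 14.54 to 14.65) and at 24 h (13.57 to 13.78 against 15.19 to 15.45), with no overlap at either time.

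The widening of the Lpl ratio passed the test in both intervals. It fell by 0.65 ± 0.09 (log2) at 24 h over 6 h (adjusted p = 0.0048), where 2 of 9 genes were called against 2.47% of all genes, and by a further 0.71 ± 0.09 at 48 h over 24 h (adjusted p = 0.00010), where 4 of 9 were called against 21.1% of all genes. In co-cultured cells Lpl did not pass the test at 24 h over 6 h (0.08 ± 0.06, adjusted p = 0.33) and fell by 0.78 ± 0.06 at 48 h over 6 h (adjusted p = 3.7e-06). In cells grown alone it was 0.73 ± 0.10 higher at 24 h over 6 h (adjusted p = 0.00081) and 0.58 ± 0.10 higher at 48 h over 6 h, which is under 1.5-fold. The arrays of a time shared a slide that held no other time, and in single cultures slide and time cannot be told apart. A second Lpl probe was lower in co-cultured cells on all 12 arrays too, but by less, with mean ratios of -0.36 ± 0.04, -0.92 ± 0.11 and -0.91 ± 0.08 in order of time (SD, n = 4). Its co-cultured level averaged 10.90 ± 0.11, 11.28 ± 0.22 and 11.08 ± 0.17 in order of time (SD, n = 4), which is not lower at 48 h than at 6 h, so the co-cultured fall rests on 1 of 2 probes. With the mean of both probes the ratio difference between 48 h and 24 h was -0.35 and the co-cultured difference between 48 h and 6 h was -0.30, and neither was called. Median centring gave a ratio of -0.23 at 6 h, which was not called, and -0.71 and -2.40 at 24 h and 48 h. Without the 3 arrays in doubt the ratio difference between 24 h and 6 h was -0.64 with an adjusted p of 0.094. Of the 12 fibroblast genes, Col3a1, Pdgfra and Postn were also lower at 48 h, Dcn and Fn1 were higher, and 7 were not called. The part of these genes in the Lpl ratio was not tested.

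**Figure D2:**
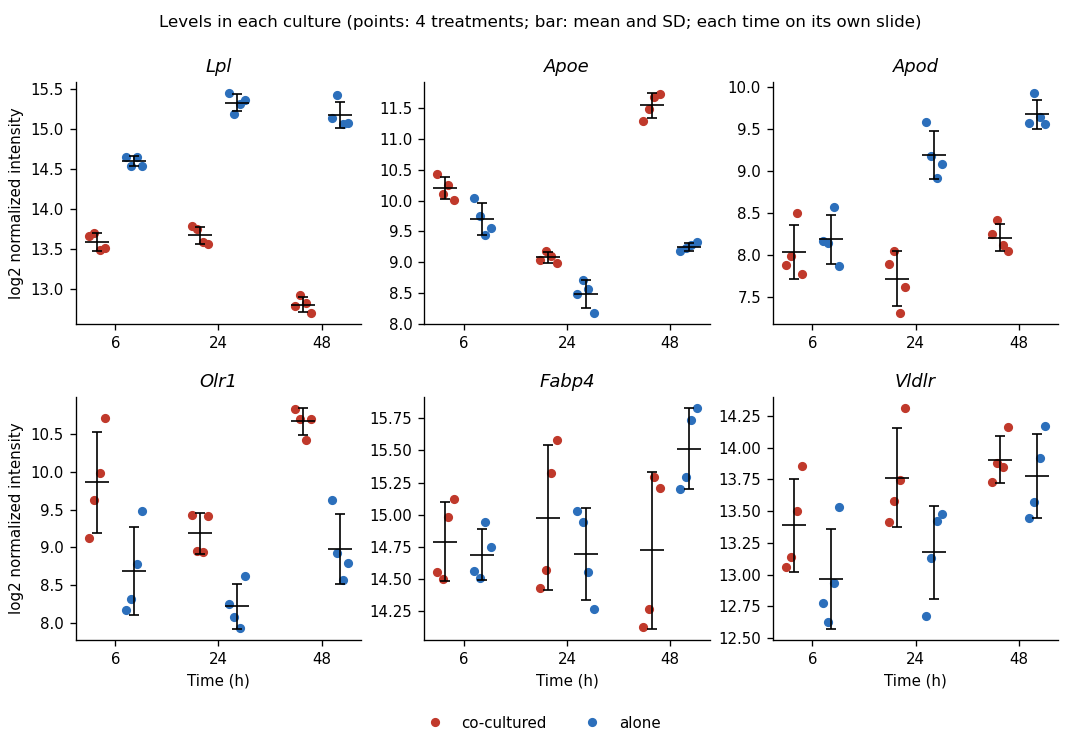
Log2 normalized intensity (y axis, a separate range for each gene) at 6, 24 and 48 h (x axis) in co-cultured cells (left of each pair) and cells grown alone, with 1 point per treatment and the mean with SD. For Lpl and Olr1 the co-cultured and alone points separate at 48 h in opposite directions, while for Fabp4 the points of a culture spread over more than 1 log2 unit in co-cultured cells at 24 h and 48 h.

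Apoe, on chromosome 7 from 19696244 to 19701310, encodes a ligand through which lipoproteins bind their receptors and was read by 1 probe with 10 spots per array. Its ratio was 0.36, 0.81, 0.46 and 0.40 with S, C, CS and NT at 6 h, and 0.48, 0.55, 0.81 and 0.56 at 24 h. At 48 h the ratios were 2.26, 2.41, 2.40 and 2.12. The 48 h values lay far above those of the earlier times, which overlapped. The fitted ratio was 0.51 ± 0.07 at 6 h (1.42-fold, adjusted p = 0.00021, under the fold threshold), 0.60 ± 0.07 at 24 h (1.52-fold, adjusted p = 7.5e-05) and 2.30 ± 0.07 at 48 h (4.91-fold, adjusted p = 1.8e-09). The 24 h call stood close to the threshold and was lost without the 3 arrays in doubt (0.54, adjusted p = 0.024) and when NT at 24 h or CS at 24 h was left out (0.54 to 0.69 over all 12 left out in turn). Between 24 h and 48 h the ratio was 1.70 ± 0.10 higher (adjusted p = 1.3e-06).

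Apoe levels in both cultures were lower at 24 h than at 6 h and parted afterwards. At 48 h the log2 level was 11.48, 11.69, 11.73 and 11.29 with S, C, CS and NT in co-cultured cells, against 9.23, 9.28, 9.32 and 9.17 in cells alone. At 6 h the cultures overlapped (10.01 to 10.44 against 9.45 to 10.04), and at 24 h they did not (8.98 to 9.19 against 8.17 to 8.71). Co-cultured cells were 1.13 ± 0.13 lower at 24 h over 6 h (adjusted p = 0.00023) and 1.34 ± 0.13 higher at 48 h over 6 h (adjusted p = 1.3e-05). Cells alone were 1.22 ± 0.14 lower at 24 h over 6 h (adjusted p = 0.00035), and at 48 h over 6 h the difference was -0.45 ± 0.14, under the fold threshold. At 24 h over 6 h 1 of 9 genes in co-cultured cells and 3 of 9 in cells alone were called, against 8.95% and 11.2% of all genes. At 48 h over 6 h 5 of 9 and 6 of 9 were called (5 in cells alone without Cd36, which was near background), against 28.6% and 13.7% of all genes. The summed macrophage gene level was also higher in co-cultured than in alone channels at 48 h. Of the 13 genes summed, 6 were called higher at 48 h, 1 lower (Cd53) and 6 were not called. Their part in the Apoe ratio was not tested.

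Apod, on chromosome 16 from 31296192 to 31314808, encodes a lipocalin that binds small lipids, unlike most other apolipoproteins in structure. At 6 h its ratio was -0.15, -0.07, -0.09 and -0.29 with S, C, CS and NT, and it was not called (-0.15 ± 0.08, adjusted p = 0.16). At 24 h the ratios were -1.13, -1.61, -1.46 and -1.69, and at 48 h -1.52, -1.52, -1.51 and -1.32. Every ratio at the later times lay below every ratio at 6 h. The fitted ratio was -1.47 ± 0.08 at 24 h (2.78-fold lower, adjusted p = 7.2e-07) and -1.47 ± 0.08 at 48 h (2.77-fold lower, adjusted p = 5.5e-08). The ratio fell by 1.32 ± 0.12 at 24 h over 6 h (adjusted p = 0.0012) and differed by 0.00 ± 0.12 at 48 h over 24 h (95% interval -0.26 to 0.27). The level in cells alone was 1.00 ± 0.17 higher at 24 h over 6 h (adjusted p = 0.0022, and 0.96 with an adjusted p of 0.064 without the 3 arrays in doubt) and 1.49 ± 0.17 higher at 48 h over 6 h (adjusted p = 0.00031), whereas that in co-cultured cells differed by -0.32 ± 0.18 (adjusted p = 0.20) and 0.17 ± 0.18 (adjusted p = 0.45). At 48 h levels ran from 8.04 to 8.41 in co-cultured cells, against 9.56 to 9.93 in cells alone. A second Apod probe was above background in 1 co-cultured channel only, and gave no usable ratio.

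Olr1, on chromosome 6 from 129479150 to 129507350, encodes LOX-1, a scavenger receptor for oxidized LDL. Its ratio was 1.31, 1.20, 1.23 and 0.95 with S, C, CS and NT at 6 h, and 0.87, 1.02, 0.80 and 1.17 at 24 h. At 48 h it was 1.78, 1.86, 1.92 and 1.21. All 12 ratios lay above 0, and at 48 h the NT array was the lowest. The fitted ratio was 1.18 ± 0.10 at 6 h (2.26-fold, adjusted p = 1.3e-05), 0.97 ± 0.10 at 24 h (1.95-fold, adjusted p = 3.9e-05) and 1.69 ± 0.10 at 48 h (3.23-fold, adjusted p = 9.4e-08). At 48 h the log2 level was 10.71, 10.42, 10.71 and 10.84 with S, C, CS and NT in co-cultured cells, against 8.92, 8.56, 8.79 and 9.63 in cells alone. The ratio was 0.72 ± 0.15 higher at 48 h over 24 h (adjusted p = 0.0018), and 0.48 without the 3 arrays in doubt (adjusted p = 0.078) and 0.10 under median centring, neither of which was called. In co-cultured cells the level was 0.81 ± 0.24 higher at 48 h over 6 h (adjusted p = 0.016), a call that was lost when any of NT at 6 h, NT at 48 h or S at 48 h was left out (0.49 to 1.05 over all 12 arrays left out in turn). The summed macrophage gene levels of the cultures did not overlap at 6 h and 48 h and overlapped at 24 h. Of the 13 genes summed, 7, 2 and 6 were called higher at 6, 24 and 48 h, and 1 was lower at 48 h. Their part in the Olr1 ratio was not tested.

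Vldlr, on chromosome 19 from 27216480 to 27254231, encodes the VLDL receptor, which binds lipoproteins that carry the product of Apoe. Its ratio was 0.51, 0.57, 0.32 and 0.28 with S, C, CS and NT at 6 h, 0.45, 0.32, 0.83 and 0.74 at 24 h, and 0.31, -0.07, -0.01 and 0.28 at 48 h. The 6 h range overlapped those of both later times, while those of 24 h and 48 h did not overlap. It was called at 24 h alone (0.59 ± 0.09, 1.5-fold, adjusted p = 0.00044), on the edge of the threshold, and neither with the mean of both probes (0.52) nor without the 3 arrays in doubt (0.56), NT at 24 h or CS at 24 h (0.47 to 0.68 over all 12 left out in turn). At 6 h it was 0.42 ± 0.09 (adjusted p = 0.0033) and at 48 h 0.13 ± 0.09 (adjusted p = 0.23). The second probe averaged 0.37 ± 0.04, 0.46 ± 0.22 and -0.11 ± 0.11 at the 3 times (SD, n = 4). In cells alone the Vldlr level was 0.81 ± 0.11 higher at 48 h over 6 h (adjusted p = 0.00074), and 0.34 with the mean of both probes, which was not called. In cells alone the second probe ran from 8.61 to 9.14 at 48 h and from 8.92 to 9.07 at 6 h, which overlap, so this difference rests on 1 of 2 probes.

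Cd36, on chromosome 5 from 17781690 to 17888959, encodes a scavenger receptor and fatty acid transporter, and was dim in these cells. It lay well above background in 2 of 12 co-cultured and 5 of 12 alone channels and in none at 6 h. Its ratio ran from -0.36 to 0.01 at 6 h, from -0.47 to -0.18 at 24 h and from -0.40 to -0.20 at 48 h, and it was not called at any time (-0.31 ± 0.07 at 48 h, adjusted p = 0.0019, 1.24-fold lower). In the deposited log ratios it stood at -1.04, -1.72 and -1.49 and was called at 24 h and 48 h. These differ in both background correction and normalization, and the cause was not tested. In cells alone the probe was above background on no array at 6 h, 1 at 24 h and 4 at 48 h, and in co-cultured cells on 0, 1 and 1. It thus passed the filter through the later arrays, and its difference between 48 h and 6 h in cells alone is not given as a result.

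The 2 fatty acid binding proteins lie on chromosome 3, Fabp4 from 10204342 to 10208616 and Fabp5 from 10012585 to 10016610. Fabp4 (aP2), the binding protein of adipocytes and macrophages, had ratios of -0.37, 0.77, 1.32 and -0.60 with S, C, CS and NT at 24 h. At 48 h they were -1.02, -0.44, -0.62 and -1.07, and at 6 h 0.00, 0.04, 0.37 and 0.00. At 24 h both cultures with cortisol stood above 0 and the other 2 below, while at 48 h all 4 stood below 0. S and CS at 24 h are among the 3 arrays in doubt, and without those 3 the fitted ratio at 24 h was 0.09. Averaged over treatments the ratio was 0.10 ± 0.17 at 6 h (adjusted p = 0.63), 0.28 ± 0.17 at 24 h (adjusted p = 0.18) and -0.79 ± 0.17 at 48 h (1.73-fold lower, adjusted p = 0.0012). It fell by 1.07 ± 0.23 at 48 h over 24 h (adjusted p = 0.0028). Median centring gave 1.06 and 1.31 at 6 h and 24 h, both called, and -0.56 at 48 h, under the fold threshold. In cells alone the level was 0.82 ± 0.20 higher at 48 h over 6 h (adjusted p = 0.011), and in co-cultured cells it differed by -0.07 ± 0.11 (adjusted p = 0.63).

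Fabp5, the epidermal-type binding protein, was not called in any ratio (-0.07 ± 0.06, 0.17 ± 0.07 and -0.02 ± 0.06 at 6, 24 and 48 h). Its 95% interval at 48 h, -0.14 to 0.11, excludes a 1.5-fold change in either direction under this scaling. Median centring in place of loess moved the Fabp5 ratio to 1.5, 1.77 and 0.49 at the 3 times, so its ratio at these bright signals (log2 level of 16.17 to 17.21) depends on the scaling. Its level was lower at 48 h over 6 h in both cultures, by 0.63 ± 0.09 in co-cultured cells (adjusted p = 0.00021) and by 0.68 ± 0.10 in cells alone (adjusted p = 0.0014). The CS array at 24 h gave no value for Fabp5, since the spot was marked as an outlier.

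Of the lipases that release stored fat, Pnpla2, on chromosome 7 from 141455188 to 141460743, had ratios from 0.18 to 0.44 at 6 h (3 arrays), from -0.03 to 0.09 at 24 h and from -0.02 to 0.30 at 48 h and was not called. The fitted ratio was 0.39 ± 0.08 at 6 h (1.31-fold, adjusted p = 0.0022), 0.05 ± 0.06 at 24 h and 0.12 ± 0.06 at 48 h, and the spot was left out on the S array at 6 h. Its level was higher at 48 h over 6 h in both cultures, by 0.76 ± 0.18 in co-cultured cells (adjusted p = 0.0051) and by 1.03 ± 0.19 in cells alone (adjusted p = 0.0032). Lipe, on chromosome 7 from 25379527 to 25398486, lay well above background on 1 of 12 arrays (NT at 6 h, in both cultures) and was not well above background on the other 11.

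Across the 12 arrays the ratios of Lpl and Apoe ran in opposite directions (r = -0.89), Lpl and Apod together (r = 0.83) and Apoe and Olr1 together (r = 0.81). These values share the 3 times, the slides and the normalization and are a description only. By the same measure over 13040 genes complete on all arrays, the genes most like Lpl were Kcnab1, Fbxo36 and Timm8b (r of 0.98, 0.97 and 0.97), those most like Apoe were Sart3, Slc23a3 and Ckmt1 (0.99 each), and those most like Olr1 were Gabpb1, Hspb8 and Oxt (0.97, 0.97 and 0.96). Apod was followed by Sugct, Bmf and Slc44a1 (0.96, 0.95 and 0.94).

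The hormones changed the co-culture ratio of no gene past the threshold, neither among these 9 genes nor among all genes tested (0 called, 0% with S, C or CS over NT by limma, the 1 tool run). At an unadjusted p under 0.05 there were 1806 genes with S, 1359 with C and 1275 with CS, among them 0, 1 and 1 of the 9 genes. The largest hormone difference in a ratio among the 9 genes was that of Fabp4, 0.92 ± 0.27 with CS (adjusted p = 0.42) and 0.68 ± 0.27 with C (adjusted p = 0.47), against 0.09 ± 0.27 with S. Without the CS array at 24 h the CS value was 0.55, and with median centring it was 1.01 and was called (adjusted p = 0.013).

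Within each culture, the genes that passed the test were higher with C or CS. In co-cultured cells 1 of 9 genes was called with C over NT, against 1.96% of all genes, and 2 of 9 with CS over NT, against 3.79%. Fabp4 in co-cultured cells exceeded its NT level of the same time by 0.42, 0.89 and 1.17 with C and by 0.57, 1.15 and 1.08 with CS at 6, 24 and 48 h, while with S the differences were -0.05, 0.14 and 0.14. The fitted difference was 0.83 ± 0.13 with C (1.77-fold, adjusted p = 0.013) and 0.93 ± 0.13 with CS (1.91-fold, adjusted p = 0.0046). In cells grown alone Fabp4 differed from NT by 0.38, -0.48 and 0.54 with C and by 0.19, -0.77 and 0.63 with CS, so that it was above NT at 6 h and 48 h and below it at 24 h, and neither passed the test (0.15 ± 0.23 and 0.02 ± 0.23). That the cultures differ was not shown, since the hormone difference of the ratio did not pass its test.

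**Figure D3:**
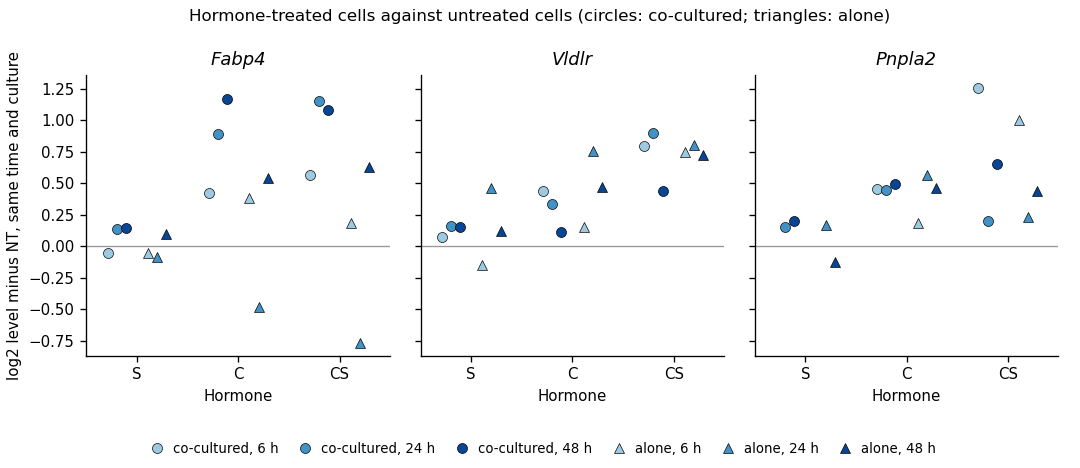
Log2 level of hormone-treated minus NT cells of the same time and culture (y axis) for S, C and CS (x axis), with circles for co-cultured cells, left of the triangles for cells alone, shaded by time. All 6 circles of Fabp4 with C or CS lie between 0.42 and 1.17, whereas the triangles run from -0.77 to 0.63.

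Vldlr was called with CS over NT in both cultures, by 0.71 ± 0.10 in co-cultured cells (1.63-fold, adjusted p = 0.0056) and by 0.76 ± 0.13 in cells alone (1.69-fold, adjusted p = 0.025). In cells alone it was the 1 gene of 9 called with CS, against 1.51% of all genes. With CS its level exceeded NT by 0.79, 0.90 and 0.44 in co-cultured cells and by 0.75, 0.81 and 0.72 in cells alone at the 3 times. With C alone it exceeded NT by 0.30 ± 0.10 in co-cultured cells (adjusted p = 0.17) and by 0.46 ± 0.13 in cells alone (adjusted p = 0.12). None of the 9 genes was called with C in cells alone, against 0.246% of all genes, and none with S in either culture, where 0% of all genes were called (0 of the 9 genes at an unadjusted p under 0.05, beside 895 genes in co-cultured cells and 1119 in cells alone). Pnpla2 with CS missed the threshold in co-cultured cells (0.70 ± 0.18, adjusted p = 0.053) and in cells alone (0.56 ± 0.19, adjusted p = 0.16).

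The calls with hormones were lost when the 3 arrays in doubt were left out together, and some were lost when a single array was left out. With CS in co-cultured cells the count of called genes did not fall when any single array was left out. Without the 3 arrays in doubt, none of the 9 genes was called with C or CS in either culture, although the values stayed close (Fabp4 with C 0.83, adjusted p = 0.079, and with CS 0.84, adjusted p = 0.11, in co-cultured cells, and Vldlr with CS 0.62 in co-cultured cells and 0.81 in cells alone, adjusted p = 0.10 and 0.096). The Vldlr call with CS in cells alone was lost when any of NT at 6 h, CS at 6 h, NT at 24 h, C at 48 h or CS at 48 h was left out (0.65 to 0.86 over all 12 left out in turn). The Fabp4 call with C was also lost when any of NT at 24 h, C at 24 h or C at 48 h was left out (0.69 to 0.98 over all 12 left out in turn). With the mean of both Vldlr probes the CS difference was 0.31 in co-cultured cells and 0.45 in cells alone, and neither was called. The second Vldlr probe, above background on all 12 arrays, differed from NT with CS by -0.22, -0.32 and 0.26 in co-cultured cells and by -0.13, 0.01 and 0.54 in cells alone at 6, 24 and 48 h, so both Vldlr calls with CS rest on 1 of 2 probes.

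Related genes outside the 10 were taken from 5 lists with 109 genes, of which 75 were tested. At 6 h 10 of the 75 were called (7 higher, 3 lower), at 24 h 6 (3 higher, 3 lower) and at 48 h 25 (12 higher, 13 lower), or 13.3%, 8.0% and 33.3%, beside 9.66%, 8.38% and 31.4% of all genes. These shares lie near the background and say nothing particular of the lists.

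Among partners of lipoprotein lipase and related lipases (10 tested), none was called at 6 h or 24 h, and 1 was higher and 2 lower at 48 h (list median -0.10). Lmf1, needed for the folding of the lipase in the endoplasmic reticulum, was higher at 48 h (0.92 ± 0.06, adjusted p = 1.4e-07), while Sel1l, of the same quality control pathway, was lower (-1.04 ± 0.06, adjusted p = 5.5e-08), as was Lipa, the lysosomal acid lipase (-1.02 ± 0.15). Angptl4, an inhibitor of the lipase, was above 0 on all 4 arrays of each time (0.33 ± 0.07, 0.49 ± 0.07 and 0.53 ± 0.07), under the fold threshold, and Gpihbp1, which anchors the lipase on endothelium, was at 0.00, 0.04 and 0.01.

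Among other apolipoproteins and lipid export genes (11 tested), 1 was higher and 1 lower at 6 h, 1 lower at 24 h, and 1 higher and 3 lower at 48 h (list median 0.10). Abca1, which exports cholesterol to apolipoproteins, was higher at 6 h (0.73 ± 0.09) and lower at 48 h (-0.95 ± 0.09, adjusted p = 2.7e-06). Apoo was lower at each time (-0.60, -0.63 and -0.97, SE 0.06 each), and Apoh was higher at 48 h (1.33 ± 0.09). Among 20 lipoprotein and scavenger receptors, 3 were higher at 6 h, 1 at 24 h, and 6 were higher and 2 lower at 48 h (list median 0.04). Lrp1, a large receptor that takes up remnants carrying the product of Apoe, was higher at 48 h (1.37 ± 0.08, adjusted p = 8.4e-08), as was Lrp6 (0.90 ± 0.10), a Wnt co-receptor. Cxcl16, a scavenger receptor and chemokine, was higher at 6 h and 24 h (0.79 ± 0.15 and 1.01 ± 0.15), and Scara5 and Scara3 were lower at 48 h (-1.26 ± 0.09 and -0.67 ± 0.08). Scarb1, the HDL receptor, reached 0.55 ± 0.06 at 48 h, under the fold threshold.

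Among 15 genes of fatty acid uptake and binding, 1 was higher and 1 lower at both 6 h and 24 h, and 3 were higher and 4 lower at 48 h (list median 0.27). Slc27a3, of the fatty acid transport protein family, was higher at each time (0.87, 1.72 and 1.73, SE 0.12 each), and Slc27a4 at 48 h (0.77 ± 0.07). Cav2, a caveolin, was lower at each time (-0.71, -0.94 and -1.87, SE 0.07 each), and Acsl1, which activates long-chain fatty acids, was lower at 48 h (-0.86 ± 0.06). Among 19 genes of lipolysis and lipid droplets, 2 were higher and 1 lower at 6 h, 1 higher and 1 lower at 24 h, and 1 higher and 2 lower at 48 h (list median -0.16). Hilpda, a droplet protein that inhibits adipose triglyceride lipase, was higher at each time (1.29 ± 0.08, 1.59 ± 0.08 and 1.34 ± 0.10), and Dgat2, which makes triglyceride, was higher at 6 h (0.97 ± 0.13). Plin4, a droplet coat protein, was lower at each time (-0.82, -0.99 and -0.68, SE 0.10 each), and Prkar2b, a regulatory subunit of protein kinase A, was lower at 48 h (-0.99 ± 0.04). Abhd5, the activator of adipose triglyceride lipase, and Mgll, the monoglyceride lipase, were not called at any time (-0.05 ± 0.06 and 0.16 ± 0.14 at 48 h), and Pparg stayed between -0.28 and -0.10.

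**Figure D4:**
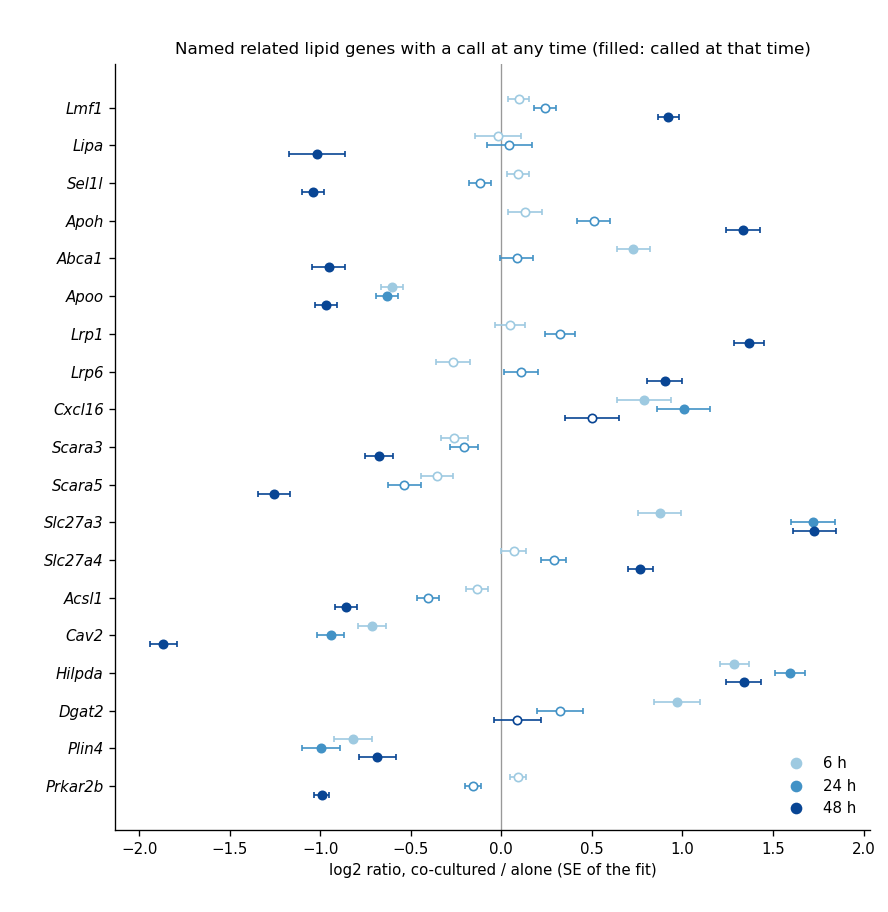
Fitted log2 ratio of co-cultured over alone with its SE (x axis) at 6, 24 and 48 h for genes of the 5 related lists (y axis) named in the text and called at any time, filled where the gene was called at that time. Slc27a3 and Hilpda lie right of 0 and Cav2, Plin4 and Apoo left of 0 at each time, whereas Abca1 lies right at 6 h (0.73) and left at 48 h (-0.95).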

How the data were processed

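The arrays were 2-colour Agilent mouse arrays with 39429 probes. The deposited scanner files hold the intensity of each spot and its local background in both channels, as the authors' Agilent Feature Extraction (10.7.3.1 in the file headers, 10.5.1.1 in the submitters' processing notes) gave them. The authors' value table holds the log10 ratio of Cy5 over Cy3, with a median of 0 on each array, and was used as an alternative. Other deposited columns (probe names, accessions and spot flags) served to name and filter spots.

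Median signals were corrected with normexp (offset 50) and normalized by loess within each array in limma 3.58.1 (R 4.3.3). Control spots had weight 0, outlier spots were left out, and a local background over 5 times the array's median was set to that median, with its spot left out of the values. Spots were averaged per probe, and a gene was represented by its brightest probe among those that exceeded background in 1 channel or both on 3 or more arrays. Of 39429 probes 27508 were named through RefSeq (GRCm38.p6). Ratios were fitted with time and treatment as additive terms (12 arrays, 6 residual degrees of freedom), with empirical Bayes and Benjamini-Hochberg adjustment over all genes tested. Single cultures were scaled with Aquantile after loess and each fitted alone. A call needed an adjusted p under 0.05 and 1.5-fold. The fit was tested on simulated data.

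All 10 genes are reported. From each related list and time up to 2 called genes with the highest and 2 with the lowest values were named, besides genes whose role describes a member. Some genes that this rule would take are not reported here. The genes, lists and tests were chosen with earlier results of these data known. Alternatives were other signals, offsets, normalizations, filters, probe summaries, array weights, models and thresholds, and each array left out. Python 3.11.15, pandas 2.3.3 and matplotlib 3.10.9 made the sequence searches and plots.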

Additional observations from a re-analysis of the deposited data

Results flagged for a closer look

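In 3 of 25 groups of 4 arrays, 1 array stood apart from the other 3 by Dixon's criterion. Among like arrays chance alone gives this in about 1 in 20 groups. The 4 arrays of a group are 4 treatments, so that rate need not hold, and a treatment difference and chance cannot be told apart. The Apod ratio at 48 h was -1.32 in NT cells, and the nearest of the others was -1.51. The Cd36 ratio at 24 h was -0.47 with C, against -0.21 for the nearest, in signals close to background. The Fabp4 ratio at 6 h was 0.37 with CS, against 0.04 for the nearest.

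The co-culture effect differed between times by limma's test of the difference for 5 genes. Between 24 h and 6 h the ratio of Lpl fell by 0.65 and that of Apod by 1.32 on the log2 scale. Between 48 h and 24 h the ratio of Lpl differed by -0.71 and that of Fabp4 by -1.07, while those of Apoe and Olr1 were 1.70 and 0.72 higher. The second Lpl probe averaged -0.92 at 24 h and -0.91 at 48 h, and the mean of both probes was not called for this interval. Without the arrays in doubt, neither the Lpl difference at 24 h over 6 h nor the Olr1 difference was called. Each time was hybridized on a slide of its own, and the medium was changed after 24 h, so slide, medium change and time cannot be told apart.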

How the results depend on the processing

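Across settings other than leaving out single arrays, 167 counts of called genes stayed within 1.5 times and 24 did not, and 1590 values stayed on their side of the threshold (called ones with the same direction, others within 1 residual SD), 27 passed it newly, 45 lost it, 55 moved further and 2 reversed. The reversed ones were Fabp5 at 6 h (1.5) and Pnpla2 at 48 h over 24 h (-0.71), both under median centring, and the cause was not tested. Most counts in this section stand without their share over all genes, and show only how the calls depend on the processing. Median centring called 6 of the 9 genes at 6 h, 1 at 24 h over 6 h and 1 with CS on the ratio. At 6 h it called 25.2% of all genes higher and 1.67% lower. The mean of a gene's probes called 1 with CS in co-cultured cells and 0 with CS in cells alone. Scaling between arrays called 2 at 48 h over 24 h, and array weights 3 at 24 h. Quantile normalization over 24 channels, of either signal, called 2 in co-cultured cells at 24 h over 6 h. Without the 3 arrays in doubt, 3 were called at 24 h, against 8.33% of all genes, and 1 at 24 h over 6 h. With these arrays left out, 0 were called in co-cultured cells with C or CS and 0 in cells alone with CS. With no fold threshold 5 were called at 6 h and 2 in co-cultured cells at 24 h over 6 h. At 6 h 8094 of 13841 genes, 6 of the 9 among them, had an unadjusted p (limma) under 0.05. With a 2-fold threshold 2 were called at 24 h, 1 at 24 h over 6 h, 2 at 48 h over 24 h, 1 in co-cultured cells and 2 in cells alone at 48 h over 6 h, 0 in co-cultured cells with C or CS, and 0 in cells alone with CS.

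With each array left out in turn, the count ran from 3 to 5 at 24 h, from 1 to 2, 4 to 7, 0 to 1 and 2 to 3 in co-cultured cells at 24 h over 6 h, at 48 h over 6 h, with C and with CS, and from 3 to 4, 5 to 7 and 0 to 1 in cells alone at 24 h over 6 h, at 48 h over 6 h and with CS. It stayed at 2 at 6 h, 5 at 48 h, 2 at 24 h over 6 h and 4 at 48 h over 24 h. No paired analysis was possible because each condition had 1 array and the labels give no replicate numbers to use as a block, beyond the ratio that sets both cultures of an array against each other and the treatment term that matches arrays across times. Cd36 and Lipe lay near background, which limits what can be said of them.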
